A study of Mus musculus with 11 samples.

Results

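Ccl20 and Ccr6 encode a chemokine and its receptor, and they are described here across whole lacrimal glands of WT, Tlr7 KO and Ifnar1 KO male NOD mice. The members were taken by name and are 2 of the 19058 genes in the main table. Both were among the 13937 genes tested. RNA sequencing was performed on 3 WT, 5 Tlr7 KO and 3 Ifnar1 KO mice, with 1 library per mouse from 1 of its glands. NOD is an autoimmune-prone inbred strain in which males develop lacrimal gland inflammation, and all 3 groups carry its background. WT mice had no engineered allele. Tlr7 KO mice carry a deletion of 2 base pairs in the gene of the RNA sensor TLR7, made by CRISPR/Cas9 in NOD embryos. Ifnar1 KO mice are NOD.Ifnar1 em16/em16 and lack a chain of the type I interferon receptor. Each knockout is present in every cell of the body from the embryo on and each is a single allele. The WT and Tlr7 KO mice were 20 to 22 weeks old, and the age of the Ifnar1 KO mice was not given in the sources used here. The study's methods state that a further Ifnar1 KO mouse was left out because its expression profile and its gland inflammation resembled WT. The Ifnar1 KO group was therefore chosen in part on the outcome, whereas no mouse was left out of the other groups. No treatment was given in the labels.

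CCL20 is a CC chemokine that epithelial cells secrete under NF-kB activating signals such as IL-17, IL-1, TNF and lymphotoxin, and it is a standing product of the epithelium over mucosal lymphoid follicles. CCR6 is its only known chemokine receptor and is carried by B cells, by memory and regulatory T cells, by type 17 lymphocytes and by some dendritic cells. The ligand is described here beside epithelial genes and the receptor beside lymphocyte genes, although no cell type was separated. RNA of a whole gland cannot tell fewer cells of a type apart from less RNA per cell.

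Ccl20 (ENSMUSG00000026166) lies on the plus strand at chr1:83116766-83119167 of GRCm38, has 3 annotated transcripts of 3 to 4 exons and holds 1421 bases of exon. Ccr6 (ENSMUSG00000040899) lies on the plus strand at chr17:8236043-8257141, has 9 annotated transcripts of 2 to 6 exons and holds 2320 bases of exon. No other annotated gene overlaps either of them. The 250 bases before the RefSeq start of each gene are printed because both transcripts moved in the same direction, and they were searched on both strands for 3 motifs. The motifs were the kappa B site of NF-kB (GGG, any 2 bases and TTTCC), the interferon-stimulated response element (TTTC, any 2 bases and TTTC) and the AP-1 site (TGA, any base and TCA). The windows are chr1:83116516-83116765 for Ccl20 and chr17:8235793-8236042 for Ccr6, both on the plus strand of GRCm38.p6 and with no exon in them, and capitals mark a motif match.
Ccl20: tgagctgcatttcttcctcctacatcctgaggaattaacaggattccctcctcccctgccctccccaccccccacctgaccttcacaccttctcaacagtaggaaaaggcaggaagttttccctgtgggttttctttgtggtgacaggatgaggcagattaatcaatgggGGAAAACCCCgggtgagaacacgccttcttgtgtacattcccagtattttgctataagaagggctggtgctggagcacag
Ccr6: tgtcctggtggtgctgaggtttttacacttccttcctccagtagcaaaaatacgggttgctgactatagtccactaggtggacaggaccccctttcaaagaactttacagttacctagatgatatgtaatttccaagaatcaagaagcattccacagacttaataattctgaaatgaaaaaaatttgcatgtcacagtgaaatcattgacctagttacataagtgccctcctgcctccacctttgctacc
The Ccl20 window held 1 kappa B match, GGAAAACCCC as read on the printed strand, from 80 to 71 bases before the start. The printed Ccr6 window and the window of a second RefSeq start of Ccr6 at chr17:8242276-8242525 held no match to any of the 3 motifs. Of 32851 mouse promoter windows of this length, 1.41% held the kappa B letters, 2.98% the interferon-response letters and 6.75% the AP-1 letters. A match describes the letters in the window and is not evidence of binding.

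The libraries held 20512315 to 28814250 counts assigned to genes, and the 10 most abundant genes took 54.0% to 65.9% of them. Genes of lacrimal secretion were present in every library at a summed level of 134528 to 322784 counts per 1000000 after TMM scaling of library sizes (CPM). Tlr7 had 86, 36 and 99 counts in the WT mice, 12 to 25 in the Tlr7 KO mice and 6 to 22 in the Ifnar1 KO mice. The level of Tlr7 was thus below WT in both knockouts and did not separate them. Counts over a whole gene do not read a deletion of 2 base pairs, so they do not check the labels. Ifnar1 transcript was still counted in the Ifnar1 KO mice, at 9.02 ± 0.625 CPM (SD, n = 3) against 13.5 ± 2.53 (n = 3) in WT and 9.54 ± 1.08 (n = 5) in Tlr7 KO. Markers of neighbouring tissue were high in a few libraries. A salivary gland list summed to 1276 CPM in WT mouse 3 and 1139 in Ifnar1 KO mouse 2, against 34.7 to 157 in the others, and a skeletal muscle list to 349, 256 and 249.5 CPM in WT mice 1 and 2 and Tlr7 KO mouse 4, against at most 9.98 in the others. Their part in the results was not tested beyond leaving out each of these mice.

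The ligand was counted in every mouse. Ccl20 had 105, 84 and 240 counts in WT mice 1, 2 and 3. It had 20, 13, 10, 4 and 6 counts in the Tlr7 KO mice and 13, 13 and 5 in the Ifnar1 KO mice. All 8 knockout mice were below the lowest WT mouse. The lowest count, 4 in Tlr7 KO mouse 4, has an exact 95% Poisson interval of 1.09 to 10.2, and the lowest WT count, 84, an interval of 67.0 to 104. These intervals cover counting error only. After TMM scaling, Ccl20 was at 3.56, 3.58 and 6.56 CPM in WT, with a mean of 4.57 ± 1.73 (SD, n = 3). In Tlr7 KO it was at 0.766, 0.563, 0.380, 0.165 and 0.315 CPM, with a mean of 0.438 ± 0.233 (n = 5). In Ifnar1 KO it was at 0.444, 0.486 and 0.209 CPM, with a mean of 0.380 ± 0.149 (n = 3). The spread among the WT mice came from mouse 3, which was above the other 2 WT mice.

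The receptor followed the same order of groups with a wider spread. Ccr6 had 215, 46 and 237 counts in WT mice 1, 2 and 3. It had 21, 33, 5, 7 and 11 counts in the Tlr7 KO mice and 16, 21 and 4 in the Ifnar1 KO mice. All 8 knockout mice were again below the lowest WT mouse, but WT mouse 2 came close to Tlr7 KO mouse 2. In CPM, Ccr6 was at 7.29, 1.96 and 6.48 in WT, with a mean of 5.24 ± 2.87 (SD, n = 3). In Tlr7 KO it was at 0.804, 1.43, 0.190, 0.289 and 0.577, with a mean of 0.658 ± 0.495 (n = 5). In Ifnar1 KO it was at 0.546, 0.785 and 0.167, with a mean of 0.499 ± 0.312 (n = 3). WT mouse 2 was the low WT mouse for the receptor and not for the ligand, for which it lay beside WT mouse 1. That mouse also had the lowest WT level of B cell genes, at a summed 126 CPM against 439 and 385 in WT mice 1 and 3. This was not particular to B cell genes. The T cell list was also lowest in it among the WT mice, at 47.2 CPM against 150 and 114. So were the dendritic cell list (21.0 against 52.4 and 47.3) and the macrophage list (149 against 258 and 209).

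**Figure D1:**
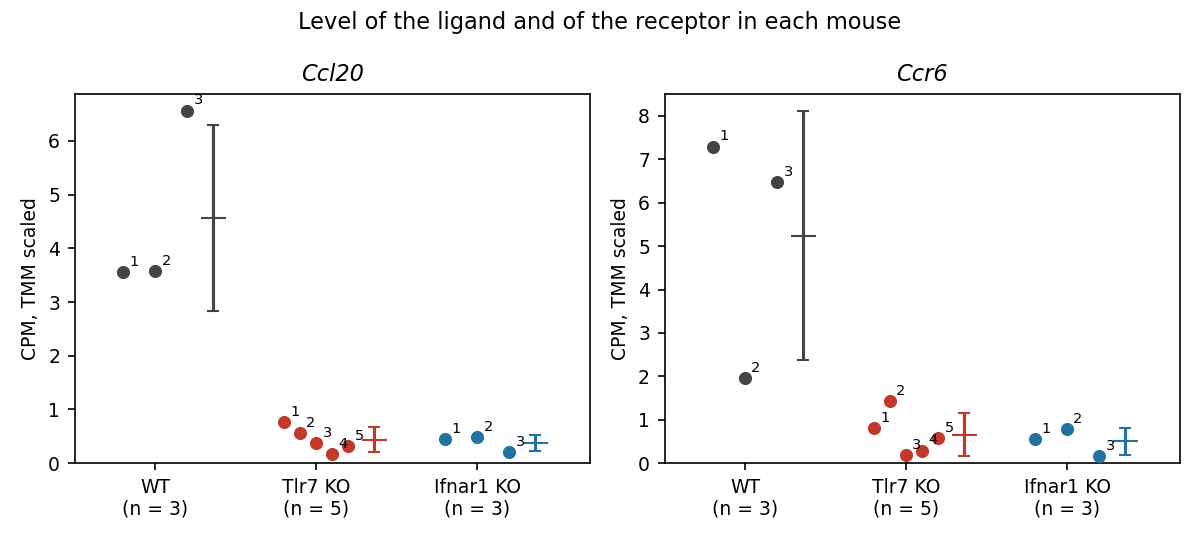
Levels of Ccl20 (left) and Ccr6 (right) in CPM with TMM scaling for each mouse, numbered by replicate, with the group mean and SD beside the points. WT mice lie at 3.56 to 6.56 CPM for Ccl20 and 1.96 to 7.29 for Ccr6, and no knockout mouse reaches the lowest WT mouse for either gene.

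Between WT and Tlr7 KO, the question was which transcripts are lower in a gland without TLR7. The paper reports clear inflammation of WT glands at this age and only minimal inflammation in Tlr7 KO. Dependence on TLR7 and the extent of the infiltrate therefore cannot be told apart here. Ccl20 was lower in Tlr7 KO by a log2 fold change of -3.36 (SE 0.387), with an adjusted p of 0.000952 by edgeR's quasi-likelihood test. Ccr6 was lower by -3.01 (SE 0.572), with an adjusted p of 0.00534 by the same test. Both changes exceeded the spread between mice. In this comparison 32.8% of the genes tested were called in either direction, 17.4% lower and 15.3% higher in Tlr7 KO, while 14.5% were lower with no overlap between the groups. The call by itself therefore does not set the pair apart. The size of the change was less common, since 0.445% of the genes had a log2 fold change as low as that of Ccl20 and 0.818% one as low as that of Ccr6. Both calls held without any single mouse, those with salivary or muscle markers among them. The Ccl20 change ranged from -3.67 to -3.0 and was smallest without WT mouse 3 (adjusted p 0.00489, edgeR), which carried the salivary markers and the highest Ccl20. The Ccr6 change ranged from -3.51 to -2.69 and was smallest without WT mouse 1 (adjusted p 0.0216), the mouse with the highest Ccr6.

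Between WT and Ifnar1 KO, with the same 3 WT mice as controls, the question was the dependence on type I interferon signalling. The paper cites earlier work in which NOD lacrimal gland inflammation needed this signalling. Its loss and a lesser infiltrate therefore cannot be told apart either. The fold changes and the lack of overlap given here hold for the 3 Ifnar1 KO mice that were kept, and leaving out a mouse that resembled WT can make both larger. Ccl20 was lower in Ifnar1 KO by a log2 fold change of -3.59 (SE 0.404, adjusted p 0.0207, edgeR's quasi-likelihood test). Ccr6 was lower by -3.40 (SE 0.635, adjusted p 0.0230, same test). In this comparison 19.2% of the genes tested were called in either direction, 12.4% lower and 6.76% higher, and 21.2% were lower with no overlap. Of all genes tested, 1.61% had a log2 fold change as low as that of Ccl20 and 2.07% one as low as that of Ccr6. These 2 calls depended on single mice. The adjusted p rose above 0.05 for Ccl20 without WT mouse 1 (0.0563), Ifnar1 KO mouse 1 (0.0667) or Ifnar1 KO mouse 3 (0.0799). It did so for Ccr6 without WT mouse 1 (0.0684), WT mouse 3 (0.0675), Ifnar1 KO mouse 1 (0.0808) or Ifnar1 KO mouse 3 (0.0818). The log2 fold changes in these fits stayed between -3.75 and -3.03. Without WT mouse 2, the low WT mouse for Ccr6, both calls held, at -3.75 for Ccl20 (adjusted p 0.00297) and -3.79 for Ccr6 (adjusted p 0.00315).

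Between the 2 knockouts neither gene was called. Ccl20 was 0.21 higher in Tlr7 KO than in Ifnar1 KO on the log2 scale (SE 0.494, adjusted p 0.867, edgeR). Ccr6 was 0.38 higher in Tlr7 KO (SE 0.647, adjusted p 0.804, edgeR). The groups overlapped for both genes, and the sign of each value changed when single mice were left out. Of the genes tested 1.79% were called in this comparison, and 16.3% had an unadjusted p under 0.05. The order of levels was thus WT above Tlr7 KO above Ifnar1 KO for both genes, and the differences between the 2 knockouts were smaller than their SE.

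Compared per length, the ligand was at 3.21 ± 1.22 CPM per kilobase of exon in WT and the receptor at 2.26 ± 1.24 (SD, n = 3). In Tlr7 KO the values were 0.308 ± 0.164 for Ccl20 and 0.284 ± 0.213 for Ccr6 (n = 5), and in Ifnar1 KO 0.267 ± 0.105 and 0.215 ± 0.134 (n = 3). The per-length levels of ligand and receptor overlapped in every group. The ligand was also set against the receptor within each mouse, as the log2 CPM of Ccl20 minus that of Ccr6, both with a prior count of 0.5. This log2 ratio was -1.03, 0.86 and 0.02 in WT mice 1, 2 and 3. It was -0.07, -1.32, 0.93, -0.74 and -0.84 in the Tlr7 KO mice and -0.29, -0.67 and 0.29 in the Ifnar1 KO mice. The group means were -0.05 ± 0.948, -0.41 ± 0.870 and -0.22 ± 0.485 (SD), so the 3 groups overlapped in full while each gene alone separated WT from both knockouts. WT mice 1 and 2 had nearly the same level of Ccl20 and lay at the 2 ends of the WT ratio through Ccr6. No test was made on this ratio. The pair and the marker lists were chosen with earlier results of these data known, which limits the ratio tests below as well.

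**Figure D2:**
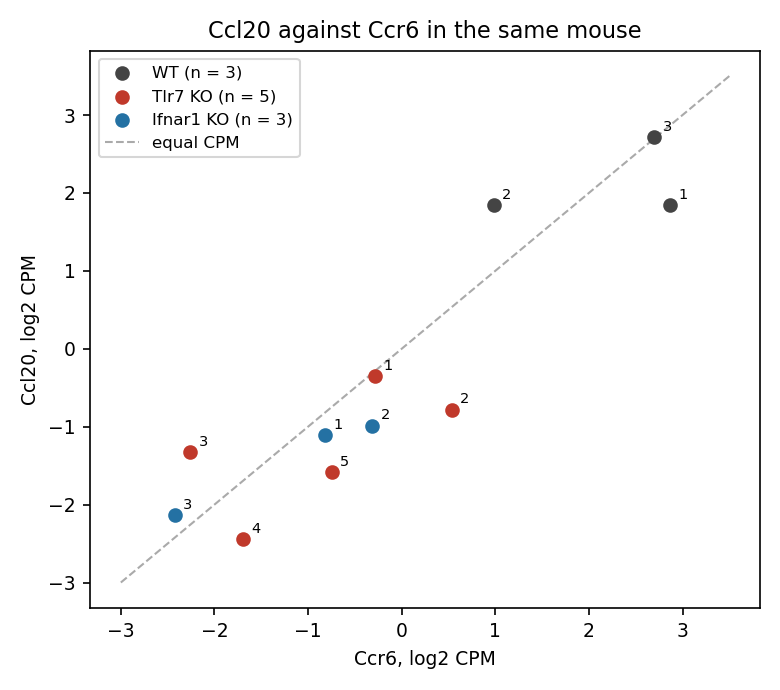
Ccl20 against Ccr6 in log2 CPM, 1 point per mouse and numbered by replicate, with a dashed line where the CPM of both are equal. The 3 WT mice lie at 1.84 or above on the Ccl20 axis, all 8 knockout mice lie below 0 on it, and points of each group fall on both sides of the line.

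The receptor was set against the genes of the cells that carry it, as its log2 CPM minus the mean log2 CPM of a marker list in the same mouse. Relative to 17 B cell markers, Ccr6 was at -1.47, -1.55 and -1.45 in WT mice 1, 2 and 3. It was at -0.93, -1.37, -1.13, -1.81 and -0.99 in the Tlr7 KO mice and at -0.46, -0.97 and 0.68 in the Ifnar1 KO mice. The WT mice thus agreed closely (-1.49 ± 0.0513, SD, n = 3), although their Ccr6 levels ranged from 1.96 to 7.29 CPM. The mean in Tlr7 KO was -1.25 ± 0.357 (n = 5), a difference of 0.24 from WT (SE 0.162) with p = 0.304 in an exact permutation test (two-sided, adjusted p 0.405 over 12 such tests). The mean in Ifnar1 KO was -0.25 ± 0.842 (n = 3), a difference of 1.24 from WT (SE 0.487). All 3 Ifnar1 KO mice were above all 3 WT mice, which gives p = 0.1 in the exact permutation test, the smallest that 3 against 3 mice allow (adjusted p 0.15). Relative to B cell genes, then, the mean of Ccr6 was not below WT in either knockout. The Ifnar1 KO value that stood highest came from mouse 3, which had 4 counts of Ccr6 and a summed 4.56 CPM of B cell markers.

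Relative to 19 T cell markers, the Tlr7 KO mice were the ones that stood apart. Ccr6 was at 0.25, 0.04 and 0.41 in WT, with a mean of 0.23 ± 0.184 (SD, n = 3). It was at -0.47, -0.86, -1.19, -1.47 and -0.71 in Tlr7 KO, with a mean of -0.94 ± 0.395 (n = 5). It was at 0.22, -0.61 and 0.58 in Ifnar1 KO, with a mean of 0.06 ± 0.613 (n = 3). All 5 Tlr7 KO mice lay below all 3 WT mice, a difference of -1.17 (SE 0.206) with p = 0.0179 in the exact permutation test, the smallest that 5 against 3 mice allow, and an adjusted p of 0.0714. The Ifnar1 KO mice overlapped with WT (difference -0.17, p = 0.8 in the exact permutation test).

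The ligand was set against epithelial genes in the same way. Relative to 12 gland epithelial markers, Ccl20 was at -4.05, -4.36 and -3.39 in WT (mean -3.93 ± 0.497, SD, n = 3). It was at -6.63, -7.00, -7.61, -8.64 and -7.73 in Tlr7 KO (mean -7.52 ± 0.769, n = 5) and at -7.46, -7.24 and -8.43 in Ifnar1 KO (mean -7.71 ± 0.632, n = 3). No knockout mouse came within 2 log2 units of the lowest WT mouse. The difference from WT was -3.59 in Tlr7 KO (SE 0.448, p = 0.0179 in an exact permutation test, adjusted p 0.0714) and -3.78 in Ifnar1 KO (p = 0.1, the smallest possible, exact permutation test). Relative to 11 duct and basal epithelial markers, Ccl20 was at 0.09 to 0.84 in WT, at -3.26 to -1.22 in Tlr7 KO and at -2.84 to -1.96 in Ifnar1 KO. The differences from WT were -2.66 in Tlr7 KO (SE 0.399, p = 0.0179, exact permutation test, adjusted p 0.0714) and -2.76 in Ifnar1 KO (p = 0.1, exact permutation test, adjusted p 0.15). None of the ratio tests passed an adjusted p of 0.05. The fall of Ccl20 was thus larger than that of either list of epithelial genes, whose own medians changed by 0.27 and -0.87 in Tlr7 KO and by 0.20 and -0.77 in Ifnar1 KO.

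**Figure D3:**
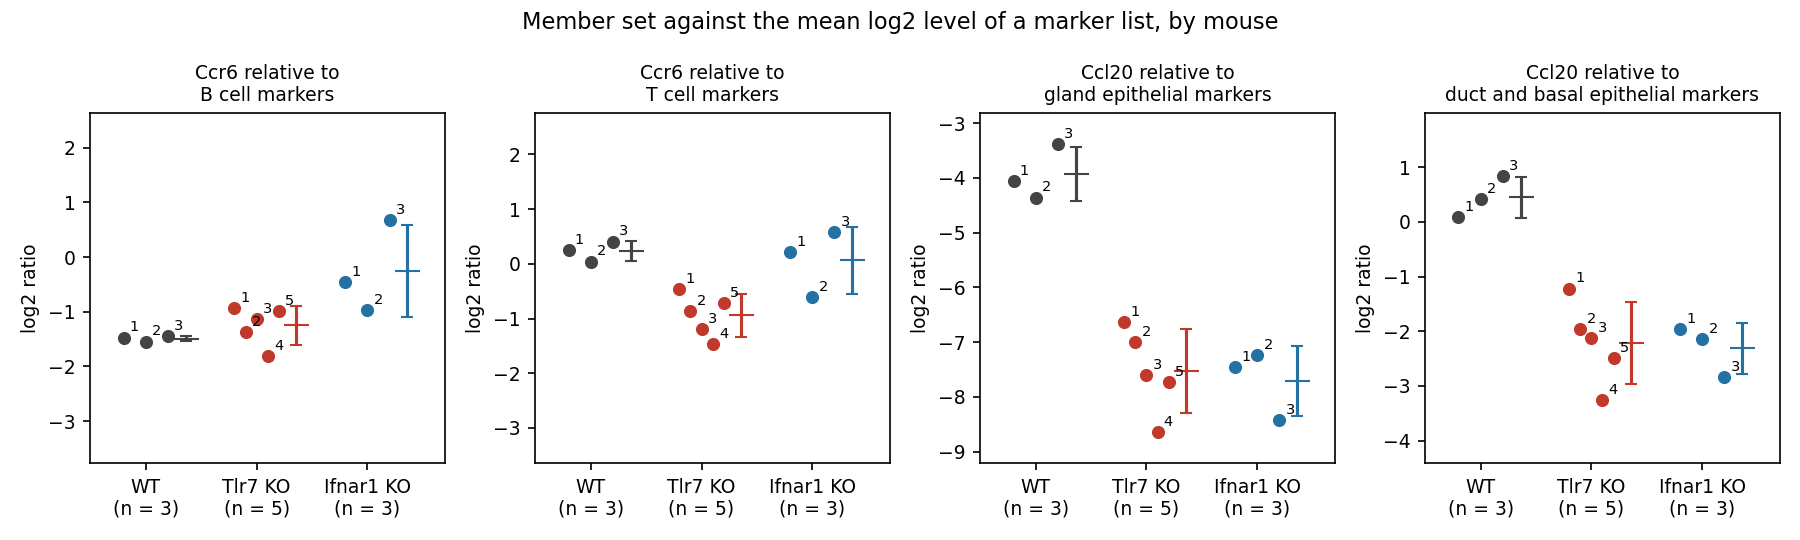
Log2 ratio of Ccr6 to B cell and T cell markers and of Ccl20 to gland epithelial and to duct and basal epithelial markers, 1 point per mouse, with group mean and SD and the same span of log2 units in each panel. Ccr6 relative to B cell markers lies between -1.81 and 0.68 in all mice, while Ccl20 relative to gland epithelial markers is at -4.36 or above in WT and -6.63 or below in the knockouts.

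Among the lists compared here, as values without a test, Ccl20 moved least relative to B cell and T cell genes. The regulatory T cell list and the list of lymph node stroma and high endothelial venules were not compared in this way. The stroma and venule list itself fell in mean log2 CPM from -0.38 in WT to -2.70 in Tlr7 KO and -2.76 in Ifnar1 KO. Its ratio to B cell markers changed from WT by -0.12 in Tlr7 KO and by 1.07 in Ifnar1 KO, and its ratio to T cell markers by -1.53 and -0.34. Its ratio to type 17 lymphocyte markers changed by -2.61 and -2.30, to dendritic cell markers by -2.63 and -2.05 and to macrophage markers by -2.94 and -2.37. The ratio of Ccl20 thus moved less against the B cell and T cell lists than against either epithelial list. Over the 11 mice the SD of the ratio of Ccl20 was 1.12 to B cell markers and 1.82 to gland epithelial markers, beside 1.74 for log2 Ccl20 itself. For Ccr6 the SD of the ratio was 0.680 to B cell markers, 0.686 to T cell markers and 1.88 to gland epithelial markers, beside 1.79 for log2 Ccr6 itself. The receptor thus varied less against the B cell list than the ligand did. These ratios share libraries and a common gradient from WT to knockout mice.

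The genes most like each member were named by the root mean square difference of centred log2 CPM over the 11 mice, and 11502 genes whose mean reached 1 CPM were ranked. The median gene was at 1.75 from Ccr6 and at 1.70 from Ccl20. Nearest to Ccr6 were Acap1 at 0.296, Pdcd1 at 0.332, Cd79a at 0.363, Tspan32 at 0.367 and Rgs14 at 0.401. Acap1 encodes an ARF GTPase-activating protein of lymphocytes, Pdcd1 the inhibitory receptor PD-1, Cd79a a signalling chain of the B cell receptor, Tspan32 a tetraspanin of blood cells and Rgs14 a regulator of G protein signalling. Nearest to Ccl20 were H2-Eb2 at 0.522, Zfp608 at 0.563, Rcsd1 at 0.584, Fads2b at 0.620 and Serpinb1a at 0.629. H2-Eb2 encodes an MHC class II beta chain, Serpinb1a an inhibitor of neutrophil proteases, Zfp608 a zinc finger protein, Rcsd1 an actin-capping regulator and Fads2b a fatty acid desaturase. The neighbours of Ccl20 lay farther from it than those of Ccr6 did. Ccr6 was the 16th nearest gene to Ccl20, and Ccl20 the 151st nearest to Ccr6, at a distance of 0.71. H2-Eb2, the nearest to Ccl20, was at 2.81 to 6.65 CPM in WT, 0.248 to 1.30 in Tlr7 KO and 0.167 to 0.860 in Ifnar1 KO. Pdcd1 was at 3.36 to 8.92, 0.266 to 1.30 and 0.167 to 1.12 CPM in the same groups.

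The other known ligands of CCR6 are beta-defensins, antimicrobial peptides of epithelium. Of 4 such genes 1, Defb1, was in the main table, with 1 to 4 counts in WT and at most 4 in a knockout mouse, and it was not tested. In the second deposited table Defb1 had at most 2 counts in a mouse, Defb14 at most 1, and Defb3 and Defb4 had 0 in all 11. These ligands of CCR6 thus lay at or under 4 counts in every mouse, below Ccl20 in each WT mouse.

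Among 25 genes of the signals that induce CCL20, 17 were tested, and calls went in both directions. In Tlr7 KO 7 were lower and 5 higher than in WT, with a median log2 fold change of -0.38, and in Ifnar1 KO 6 were lower and 3 higher, with a median of -0.72. Of all genes tested 17.4% were lower and 15.3% higher in Tlr7 KO and 12.4% and 6.76% in Ifnar1 KO, with medians of -0.04 and -0.02. The lower count in Tlr7 KO fell to 2 without WT mouse 1, 3 without WT mouse 3 and 4 without Tlr7 KO mouse 3, and that in Ifnar1 KO to 3 without Ifnar1 KO mouse 2. The higher count in Ifnar1 KO fell to 0 without WT mouse 1 or 3 or Ifnar1 KO mouse 1 or 3, and was 5 by DESeq2. For Ifnar1 KO, lower counts of this and each later list fell to 0 without WT mouse 1 or Ifnar1 KO mouse 1 or 3. They were between 0 and 2 without WT mouse 3. In these fits, in that order, 13, 0, 0 and 104 of all genes tested were called, so the loss was not particular to these lists. The median of this list was then -0.79, -0.93, -0.50 and -0.48. The genes called higher in Tlr7 KO included Il1rl2, the receptor of IL-36 (0.93, adjusted p 0.00104, edgeR). They also included Traf3ip2, the adaptor Act1 of the IL-17 receptors (0.48, adjusted p 0.00205), and Il17rc, a chain of that receptor (0.64, adjusted p 0.00221). Il17ra, another chain of it and named after its values were seen, was lower in Tlr7 KO (-0.84, adjusted p 0.0121, edgeR). Without scaling beyond library size none of the 17 was called higher in either knockout, and the median of all genes then moved to -0.54 in Tlr7 KO and -0.31 in Ifnar1 KO. Tnfrsf1a, the TNF receptor and the most abundant gene called, fell by 0.38 in Tlr7 KO (adjusted p 0.0068), and Ltbr, the lymphotoxin beta receptor and the most abundant not called, was at 0.16 (adjusted p 0.201). Ltb, a subunit of lymphotoxin that lymphocytes make, was chosen after its values were seen. It was at 20.4 ± 8.97 CPM in WT, 3.21 ± 2.66 in Tlr7 KO and 1.19 ± 0.999 in Ifnar1 KO, with log2 fold changes of -2.68 and -4.11. Il17a, also chosen after its values were seen, had at most 2 counts in a WT mouse, 3 in a Tlr7 KO mouse and 0 in the Ifnar1 KO mice, and was not tested.

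Of 11 NF-kB subunits and inhibitors, all tested, 6 were lower and 1 higher in Tlr7 KO (median -0.69), and 7 were lower in Ifnar1 KO (median -1.19), where the shares of all genes were 17.4% lower and 15.3% higher in Tlr7 KO and 12.4% lower in Ifnar1 KO. Nfkb2, the p100 subunit of the non-canonical pathway, fell by 1.05 on the log2 scale in Tlr7 KO (adjusted p 0.0053) and by 1.21 in Ifnar1 KO (adjusted p 0.0251, edgeR). Bcl3, a nuclear partner of NF-kB, changed by -1.37 (adjusted p 0.0146) and -2.71 (adjusted p 0.0235). Nfkbib, an inhibitor of NF-kB, rose by 0.30 in Tlr7 KO (adjusted p 0.0257), a call that library size scaling alone did not give. Rela changed by -0.25 and -0.37 and was not called in either. Ccl20 changed more than any of the 11. The lower count in Tlr7 KO was 3 without WT mouse 1 or 3 and 9 without WT mouse 2, and the higher count was 0 without WT mouse 3 or Tlr7 KO mouse 1.

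Among 15 other targets of NF-kB and IL-17 in epithelium, 7 were tested, and Cxcl1 went against Ccl20. Cxcl1, a neutrophil chemokine, was at 1.23 ± 0.310 CPM in WT, 4.37 ± 1.24 in Tlr7 KO and 1.15 ± 0.332 in Ifnar1 KO. It was 1.85 higher in Tlr7 KO on the log2 scale (adjusted p 0.00218) and not called in Ifnar1 KO (-0.10, adjusted p 0.85, edgeR). Its level was 1.93 higher in Tlr7 KO than in Ifnar1 KO (adjusted p 0.011), whereas Ccl20 was low in both. Icam1, an adhesion molecule, fell by 1.79 in Tlr7 KO and 2.37 in Ifnar1 KO, and Birc3, an inhibitor of apoptosis, fell by 0.74 and 1.13. Lcn2, an iron-binding antibacterial protein, was not called in Tlr7 KO (-0.25, adjusted p 0.296) and fell by 1.56 in Ifnar1 KO (adjusted p 0.0338). In all, 2 of the 7 were lower and 1 higher in Tlr7 KO (median -0.51), beside 17.4% lower and 15.3% higher among all genes tested, and 3 were lower in Ifnar1 KO (median -0.95), beside 12.4%. Without WT mouse 2 the lower count was 5 in each.

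CCL20 is a marker of the follicle-associated epithelium that overlies lymphoid tissue. Of 9 tested genes of that epithelium and its M cells, 6 were lower and 1 higher in Tlr7 KO (median -1.47), and 6 were lower in Ifnar1 KO (median -1.84). The shares lower among all genes were 17.4% and 12.4%, and the 1 gene of 9 that was higher is a share below the 15.3% of all genes. The count in Tlr7 KO was 3 without WT mouse 1, WT mouse 3 or Tlr7 KO mouse 3, and that in Ifnar1 KO was 3 without Ifnar1 KO mouse 2. Gp2, a bacterial uptake receptor of M cells, was at 3.69 ± 1.18 CPM in WT, 0.657 ± 0.116 in Tlr7 KO and 0.358 ± 0.534 in Ifnar1 KO. It fell by 2.49 (adjusted p 0.00063) and 3.37 (adjusted p 0.0427, edgeR) on the log2 scale. Spib, an M cell factor that B cells also express, fell by 3.37 and 4.14, the largest changes among the 9. Sox8, another M cell factor, had 4 to 13 counts in WT and at most 2 in a knockout mouse, and was not tested. Anxa5, a phospholipid-binding protein, rose by 0.46 in Tlr7 KO (adjusted p 0.00469), a call that was absent under library size scaling alone. Ccl9 of this list is a macrophage chemokine, and of 8 macrophage markers 4 were lower and 1 higher in Tlr7 KO (median -0.49). In Ifnar1 KO 4 of these 8 were lower and 1 higher (median -1.16), beside 12.4% lower and 6.76% higher among all genes. The higher call there was absent without WT mouse 1 or 3 or any single Ifnar1 KO mouse. At an unadjusted p under 0.05, 5 of the 8 were lower and 1 higher in Ifnar1 KO, beside 37.6% of all genes in either direction.

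**Figure D4:**
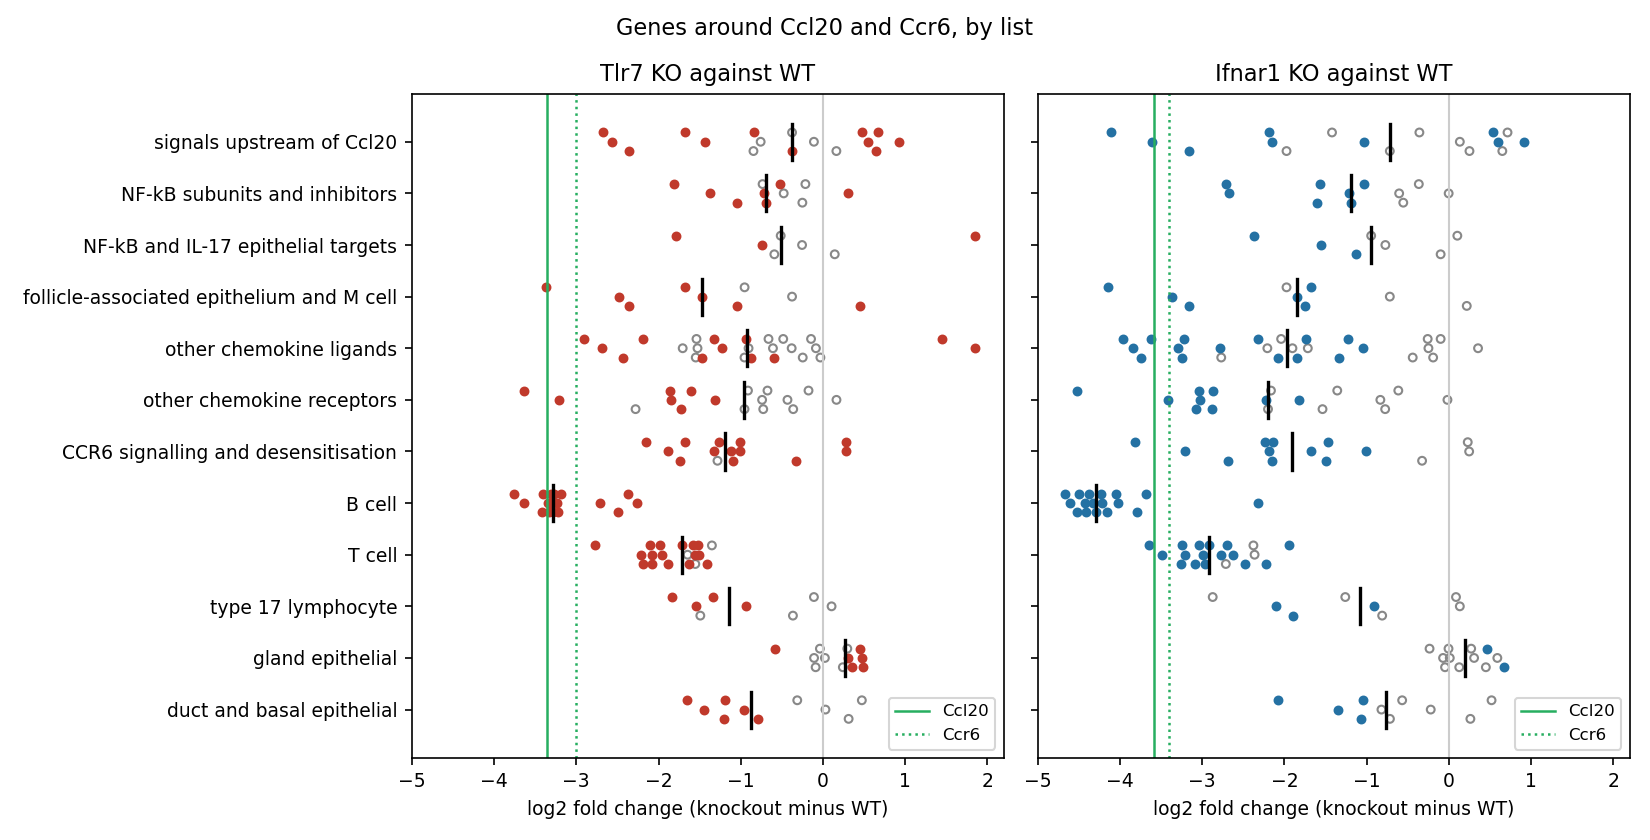
Log2 fold change against WT of the tested genes of 7 pathway lists and of the B cell, T cell, type 17 lymphocyte, gland epithelial and duct and basal epithelial lists, for Tlr7 KO (left) and Ifnar1 KO (right), with filled points called at an adjusted p under 0.05, open points not called, black bars at list medians and green lines at Ccl20 (solid) and Ccr6 (dotted). Ccl20 and Ccr6 lie in the range of the B cell genes, whose medians are -3.28 and -4.30, and beyond the medians of the other lists plotted, which leave out the salivary gland and skeletal muscle lists.

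Among other chemokine ligands, 26 of 36 were tested. In Tlr7 KO 10 were lower and 2 higher (median -0.92), and in Ifnar1 KO 15 were lower (median -1.97), against 17.4% lower and 15.3% higher in Tlr7 KO and 12.4% lower in Ifnar1 KO among all genes. Of 22 other chemokine receptors 17 were tested, of which 7 were lower in Tlr7 KO (median -0.95) and 9 in Ifnar1 KO (median -2.20). In Tlr7 KO the lower counts of ligands and receptors were 5 and 2 without WT mouse 1, 4 and 3 without WT mouse 3, and 15 and 12 without WT mouse 2. In Ifnar1 KO the receptor count was 15 without WT mouse 2 and 14 with all mice in 1 fit. Cxcl13, the B cell chemokine of lymphoid follicles, was at 33.8 ± 12.4 CPM in WT, 4.53 ± 2.23 in Tlr7 KO and 2.19 ± 1.32 in Ifnar1 KO, and fell by 2.91 and 3.97 on the log2 scale. Its receptor Cxcr5, which also stands on the B cell list, fell by 3.64 and 4.52. That pair thus changed on both sides, as Ccl20 and Ccr6 did. The pair of Cxcl12 and Cxcr4, a stromal chemokine and its widespread leukocyte receptor, changed unevenly. Cxcl12 fell by 0.60 in Tlr7 KO and 1.22 in Ifnar1 KO, and Cxcr4 by 3.21 (adjusted p 3.38e-05, edgeR) and 3.41. Ccl19, a T cell zone chemokine, fell by 2.69 and 3.75, and its receptor Ccr7 by 1.86 and 3.08. Ccl21a, the other ligand of Ccr7, had 1 to 13 counts in WT, 0 in the Tlr7 KO mice and at most 1 in an Ifnar1 KO mouse, and was not tested.

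Against these pairs, the difference between ligand and receptor was small for Ccl20 and Ccr6, at -3.36 and -3.01 in Tlr7 KO and -3.59 and -3.40 in Ifnar1 KO, within 1 SE of each other in both. Ccl28, a chemokine that glandular epithelium also secretes, went the other way. It was at 54.8 ± 7.11 CPM in WT, 150 ± 9.38 in Tlr7 KO and 71.3 ± 24.2 in Ifnar1 KO. It was 1.45 higher in Tlr7 KO (adjusted p 0.000225, edgeR), not called in Ifnar1 KO (0.35, adjusted p 0.304), and differed by 1.08 between the knockouts (adjusted p 0.019). Ccl9, a macrophage chemokine and the most abundant ligand called by its WT level, fell by 1.47 and 1.84. Cx3cl1, the most abundant ligand not called, changed by -0.25 and -0.44, and Ccr2, the most abundant receptor not called, by -0.43 and -2.16 (adjusted p 0.0591).

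**Figure D5:**
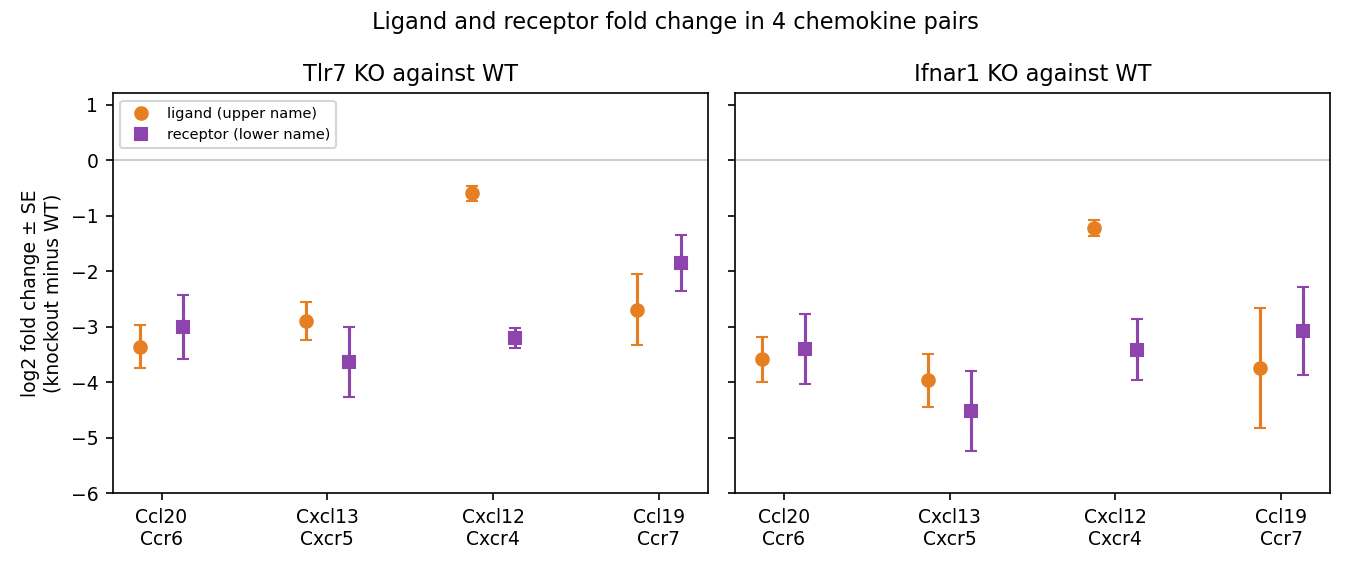
Log2 fold change against WT with its SE for the ligand (circle) and the receptor (square) of 4 chemokine pairs, for Tlr7 KO (left) and Ifnar1 KO (right). Ccl20 and Ccr6 lie at -3.36 and -3.01 in Tlr7 KO, while Cxcl12 at -0.60 and Cxcr4 at -3.21 lie far apart.

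Most genes of the signalling that CCR6 uses were lower as well. Of 14 tested of 16, 11 were lower and 2 higher in Tlr7 KO (median -1.19), with none higher under library size scaling alone or without WT mouse 1, WT mouse 3 or Tlr7 KO mouse 1, and 11 were lower in Ifnar1 KO (median -1.91). The 2 higher are a share near the 15.3% of all genes, while 17.4% of all genes were lower in Tlr7 KO and 12.4% in Ifnar1 KO. Grk6 and Grk2, kinases that desensitise chemokine receptors, fell by 1.33 (adjusted p 0.00221) and 1.01 (adjusted p 0.00226, edgeR) in Tlr7 KO and by 1.5 and 1.0 in Ifnar1 KO. Pik3cg, the lipid kinase downstream of G protein beta-gamma, fell by 1.74 and 2.15. Gnb1, a G protein beta chain and the most abundant of the list, changed by -0.33 in both and was called in Tlr7 KO (adjusted p 0.00689). In Tlr7 KO none of the 14 fell as far as Ccr6, whereas in Ifnar1 KO Rgs1, a regulator of G protein signalling chosen here after its values were seen, fell by 3.82 (adjusted p 0.0328).

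Most of the B cell and T cell genes set beside Ccr6 were lower, where 17.4% of all genes were lower in Tlr7 KO and 12.4% in Ifnar1 KO. All 17 B cell markers were lower in Tlr7 KO (median -3.28) and in Ifnar1 KO (median -4.30), among them Cd79a (-3.33 and -4.02) and Cd79b (-3.22 and -4.38), the signalling chains of the B cell receptor. Of 19 T cell markers 16 were lower in each knockout (medians -1.71 and -2.91), among them Cd4 (-1.95 and -3.04) and Lck (-2.08 and -2.99). Of 8 tested type 17 lymphocyte markers 4 were lower in Tlr7 KO (median -1.14) and 3 in Ifnar1 KO (median -1.09), among them the abundant Tmem176b (-1.83 and -2.10) and Tmem176a (-1.55 and -1.89). Those 2 membrane proteins are also made by myeloid cells. The change of Ccr6 in Tlr7 KO, -3.01, lay between the medians of the B cell and the T cell lists, and so did its change in Ifnar1 KO, -3.40. Between the knockouts none of the 17 B cell and 19 T cell markers was called by edgeR, while 2 and 1 had an unadjusted p under 0.05 and were higher in Tlr7 KO. Of all genes tested 16.3% had an unadjusted p under 0.05 in this comparison, a larger share than in either list. The B cell count in Tlr7 KO stayed at 17 without any single mouse, and the T cell count ranged from 3 (without WT mouse 1) and 4 (without WT mouse 3) to 19 (without Tlr7 KO mouse 2), with 8 to 10 without any other Tlr7 KO mouse. In Ifnar1 KO both counts fell to 0 without WT mouse 1, Ifnar1 KO mouse 1 or Ifnar1 KO mouse 3. They were 1 and 0 without WT mouse 3. In these fits, in that order, 13, 0, 0 and 104 of all genes tested were called. The medians there were -4.01, -4.24, -3.88 and -4.14 for B cell markers and -2.61, -2.70, -2.43 and -2.77 for T cell markers. Of other cells that can carry CCR6, the regulatory T cell markers had 3 members of 5 lower in the first comparison and 2 in the second, and the dendritic cell markers 4 of 8 and 1, the latter a share near the 12.4% of all genes called lower. The dendritic cell count in Ifnar1 KO depended on the mice and the tool, at 7 without WT mouse 2, 3 without Ifnar1 KO mouse 2, 4 by DESeq2 and 5 with all mice in 1 fit, and the regulatory T cell count there was 4 without WT mouse 2. Without WT mouse 1 or 3 the Tlr7 KO counts of these lists were 0 and 1. The regulatory T cell count was also 0 without Tlr7 KO mouse 1 and 1 without mouse 5, and the dendritic cell count 2 without Tlr7 KO mouse 1, 3 or 4.

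The gland epithelial genes set beside Ccl20 did not share its fall. Of 12 gland epithelial markers 1 was lower and 5 higher in Tlr7 KO (median 0.27), and 2 were higher in Ifnar1 KO (median 0.20), with Bhlha15, a secretory cell factor, at 0.49 and 0.67 and Krt8, a keratin of simple epithelium, at 0.45 and 0.31, the last not called. Among all genes 15.3% were higher in Tlr7 KO and 6.76% in Ifnar1 KO, and 17.4% and 12.4% lower. With library size scaling alone 3 were lower and none higher in Tlr7 KO (median -0.23), and none was called in Ifnar1 KO (median -0.09). Of 10 tested duct and basal markers 6 were lower in Tlr7 KO (median -0.87) and 4 in Ifnar1 KO (median -0.77). Without WT mouse 1 or 3 the gland epithelial list had 3 higher and the duct and basal list 3 lower in Tlr7 KO. Without Ifnar1 KO mouse 2 these counts in Ifnar1 KO were 0 and 2, and without WT mouse 2 they were 4 and 6. The higher gland epithelial count there was also 0 without WT mouse 1 or 3 or Ifnar1 KO mouse 1 or 3. It was 5 with all mice in 1 fit, and library size scaling alone gave 2 lower duct and basal markers in Ifnar1 KO. Krt14, a basal keratin, fell by 1.19 and 1.05, and Sox9, a duct factor, changed by 0.31 and 0.52 and was not called. Ccl20 fell by more than every gene of both epithelial lists.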

How the data were processed

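Whole lacrimal gland RNA of 11 male NOD mice was sequenced. The authors demultiplexed reads with bcl2fastq and processed them with bcbio-nextgen 1.0.8 on mm10 with Ensembl release 97. The main table of 19058 genes was taken to hold estimated counts, since the authors' methods give estimated counts from salmon 0.9.1 and tximport beside HISAT2 2.1.0 alignments, without saying which table came from which. The main table is named as normalized, but its deposited column totals differ and no scaling was found, so it was treated as counts. A second deposited table holds raw counts of 39017 genes and served as an alternative. A further per-sample column in it, 1 in all, is headed as an Ifnar1 KO mouse, matches no sample in the labels and was not used. Groups came from the labels. The members and the 22 lists of 258 genes were chosen with earlier results of these data known.

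Genes with at least 30 counts summed over the WT mice were kept, so a gene low in WT and higher in a knockout could not be tested. Each comparison was fitted on its own groups with TMM scaling and edgeR 4.0.16 (quasi-likelihood, R 4.3.3), with Benjamini-Hochberg adjustment over all genes tested and calls at an adjusted p under 0.05. A fold change is the second group over WT, or Tlr7 KO over Ifnar1 KO. The SE of an edgeR log2 fold change was derived from its test, as the absolute change over the square root of the quasi-likelihood F statistic. Marker ratios used log2 CPM with a prior count of 0.5 and two-sided exact permutation tests, adjusted over 12 tests. The script was tested on simulated data. A level of 3 counts, the floor of detection, equals 0.082 to 0.157 CPM. Annotation was GENCODE M21 and promoters came from RefSeq, GRCm38.p6. Each library is 1 mouse and no pair of libraries within a group agreed within sampling noise. Named genes were both members, Tlr7 and Ifnar1, the 5 nearest to each member, members of pathway lists of 12 or fewer genes, the 3 calls with the lowest adjusted p and the most abundant called and not called genes of longer pathway lists, 3 other chemokine axes and the 2 most abundant genes of each marker list. Alternatives were DESeq2 1.42.0, other scalings and filters, all mice in 1 fit, the replicate number as a block, the second table and each mouse left out.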

Additional observations from a re-analysis of the deposited data

Results flagged for a closer look

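The level of Ccr6 relative to lymphocyte markers differed between the knockouts before adjustment. Relative to B cell markers the difference of Tlr7 KO minus Ifnar1 KO was -0.998 on the log2 scale (SE 0.511, two-sided exact permutation p = 0.0357, adjusted p 0.0857 over 12 tests). The Tlr7 KO mice lay at -1.81 to -0.93 and the Ifnar1 KO mice at -0.97 to 0.68, so that the groups overlapped. Relative to T cell markers the difference was -1.0 (exact permutation p = 0.0357, adjusted p 0.0857), with Tlr7 KO at -1.47 to -0.47 and Ifnar1 KO at -0.61 to 0.58. Neither passed the adjustment. Ccr6 itself did not differ between these groups by the edgeR test (0.38, adjusted p 0.804), and the Ifnar1 KO values rest on 16, 21 and 4 counts of Ccr6. Without Ifnar1 KO mouse 3 the differences were -0.54 and -0.74, each with an exact permutation p of 0.143. Both also lost an unadjusted p under 0.05 in the second table (0.0536), without Ifnar1 KO mouse 1 (0.0952) and without Tlr7 KO mouse 2, 3, 4 or 5 (0.0571 to 0.0857), in exact permutation tests.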

How the results depend on the processing

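The members kept their direction against WT in both knockouts under every alternative run, and their calls under all of them except the replicate block and, for Ifnar1 KO, some single mice left out. With library size scaling alone the changes were -3.91 for Ccl20 and -3.63 for Ccr6 in Tlr7 KO and -3.92 and -3.80 in Ifnar1 KO, where the median of all genes shifted to -0.54 and -0.31. The labels number the mice in each group. The deviations of same-numbered mice had correlations of -0.15, -0.38 and 0.06 between WT and Tlr7 KO and -0.15, -0.40 and -0.22 between WT and Ifnar1 KO. Between the knockouts all were positive, at 0.08, 0.31 and 0.26. Same-numbered mice thus did not deviate together throughout in either comparison with WT, and the numbers were not taken as pairs. With the replicate block, which drops Tlr7 KO mice 4 and 5, Ccl20 changed by -2.95 (adjusted p 0.0812, edgeR) and Ccr6 by -2.73 (adjusted p 0.164) in Tlr7 KO, and by -3.53 and -3.32 (both adjusted p 0.117) in Ifnar1 KO. The replicate block called 17, 0 and 533 genes for Tlr7 KO against WT, Ifnar1 KO against WT and between the knockouts, where edgeR without it called 4566, 2677 and 250. The 0 went with 3787 genes at an unadjusted p under 0.05.

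With each mouse left out in turn, the change ranged from -3.67 to -3.0 for Ccl20 and from -3.51 to -2.69 for Ccr6 in Tlr7 KO, and from -3.79 to -3.24 and -3.86 to -3.03 in Ifnar1 KO. Between the knockouts it ranged from -0.077 to 0.42 for Ccl20 and from -0.12 to 0.85 for Ccr6, and the second table gave -0.083 for Ccl20. The ratio of Ccr6 to B cell markers between the knockouts ranged from -1.36 to -0.54, was -1.11 in the second table and was -0.80 with summed marker counts (both exact permutation p 0.0536). The ratio to T cell markers ranged from -1.34 to -0.74 between the knockouts, with -1.06 in the second table, from -1.29 to -1.04 for Tlr7 KO against WT and from -0.43 to 0.17 for Ifnar1 KO against WT. Without Tlr7 KO mouse 5 the Tlr7 KO value lost its exact permutation p under 0.05 (-1.23, p 0.0571). The ratio of Ccl20 to gland epithelial markers between the knockouts ranged from -0.17 to 0.47, with -0.19 in the second table, and to duct and basal markers from -0.16 to 0.37, with -0.28. The number of genes called ranged from 2601 (without WT mouse 3) to 6595 for Tlr7 KO, from 0 (without Ifnar1 KO mouse 1 or 3, with 4383 and 3778 at an unadjusted p under 0.05) to 4643 (without WT mouse 2) for Ifnar1 KO, and from 85 to 877 between the knockouts. It was 13 without WT mouse 1, 104 without WT mouse 3 and 1590 without Ifnar1 KO mouse 2 for Ifnar1 KO. Library size scaling alone gave 1340 for Ifnar1 KO, all mice in 1 fit gave 5124 for Ifnar1 KO and 93 between the knockouts, and DESeq2 gave 577 between the knockouts. The cause was not tested for any of these. Among the lists, library size scaling alone gave 11 lower receptors and 5 lower NF-kB and IL-17 targets in Tlr7 KO, DESeq2 and all mice in 1 fit each gave 5 lower targets in Ifnar1 KO, and all mice in 1 fit gave 6 lower type 17 markers there. The knockout mice had 4 to 33 counts of a member, which leaves counting intervals such as 1.09 to 10.2 for 4 counts. The spread between mice and the counting error were not separated.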
